A study of Sus scrofa with 9 samples.

Results

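The genes described here belong to the immediate early and stress transcription families: FOS and JUN, EGR, NR4A, IER, ZFP36, BTG and GADD45, ATF, C/EBP and small MAF, KLF, MYC and SOCS. They were taken by symbol from the deposited table, and 46 of its 19643 gene entries matched. Of these, 5 match by name alone and belong to other families (ATF7IP, ATF7IP2, CEBPZ, MYCBP2 and MYCBPAP). For a further 36 symbols that fit the same names no row was matched, and they were not analysed here. Among them were JUN, JUND, FOSB, ATF4, NR4A1, KLF2, KLF6, SOCS3, CEBPB and BTG2, and some that fit by name alone, such as CEBPZOS and MYCBP.

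The samples were longissimus dorsi muscle, the long muscle of the back, from embryonic pigs of 3 breeds, with 3 libraries each. Tibetan and Wujin pigs are indigenous Chinese breeds, and the Large White pig is an introduced one. The labels state the stage as embryonic without a day of gestation, and the title of the series names prenatal muscle and growth differences after birth as its subject. Whether the libraries within a breed are separate animals is not stated, so the p-values reflect the spread of these samples alone, which may be technical. The unit is FPKM, fragments scaled by transcript length and library size, so levels can be compared between genes. Of the Wujin columns, 1 is numbered and the other 2 share a header, and they are called Wujin 1, Wujin a and Wujin b.

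Immediate early genes are transcribed within minutes of a signal by factors already present in the cell, such as SRF and CREB, without new protein synthesis. Many of their products, including the FOS, JUN, EGR and NR4A proteins, are transcription factors that switch on later genes, and others, including ZFP36, SOCS proteins and dual-specificity phosphatases, limit the response. In skeletal muscle, contraction, stretch and injury are known inducers, and ATF and C/EBP factors carry signals from stressed endoplasmic reticulum, from lack of amino acids and from stress kinases.

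Across the whole table the Tibetan libraries stood apart. On the log2(FPKM + 1) scale, correlations over genes were 0.940 to 0.968 within breeds, 0.890 to 0.955 between Wujin and Large White, and 0.697 to 0.785 between Tibetan libraries and the others. The first principal component, on which the Tibetan libraries separated, held 76.9% of the variance. Wujin 1 stood apart from the other Wujin libraries on the second, with 8.8%. Relative depth, read from the steps between low values, was 1 to 1.22 times that of Large White 1. The 10 most abundant genes took 26.6% to 38.7% of the FPKM total in Tibetan libraries and 15.6% to 23.1% in the others. The median fitted difference over the 13106 entries tested was -0.77 for Tibetan minus Large White, -0.55 for Tibetan minus Wujin and -0.20 for Wujin minus Large White (log2). After median-ratio scaling, which rescales libraries so that the typical gene is level, the first of these was -0.011. Each fitted difference below, given with its standard error, is therefore followed by its relative difference, the fitted value minus the median of all entries tested in that comparison.

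The label of the tissue was compared with marker genes. Of 13 muscle fibre markers, 7 were matched, and their summed level was 27328 to 73768 FPKM in the Tibetan libraries, 18977 to 22725 FPKM in the Wujin ones and 10873 to 14325 FPKM in the Large White ones; ACTA1, skeletal actin, is listed at 0 in Tibetan 2 alone. The myosin heavy chains of development were split between Tibetan and the other libraries. MYH3, the embryonic form, was at 52.6 to 68.9 FPKM in Tibetan, 1203 to 1612 FPKM in Wujin and 1527 to 1933 FPKM in Large White muscle. MYH8, the perinatal form, was at 2928 to 3906 FPKM in Tibetan, 99.0 to 117 FPKM in Wujin and 51.2 to 59.5 FPKM in Large White muscle. These forms follow one another in development, and with no day of gestation given, a difference of stage and a difference of breed cannot be told apart in any Tibetan comparison below. The same holds for any difference of handling or batch that went along with breed, and none was tested. Other cell types also moved with the breed. Summed levels of 7 matched fibroblast markers were 321 to 359 FPKM in Tibetan, 3065 to 5617.5 FPKM in Wujin and 5357 to 5994 FPKM in Large White muscle. Those of 4 matched myogenic progenitor markers were 32.5 to 39.6, 231 to 262 and 190.0 to 209.6 FPKM in the same order, and those of 6 erythroid markers were 149 to 579.5, 1470.1 to 3838.5 and 1931 to 3744 FPKM. For 10 leukocyte markers the sums overlapped, at 10.4 to 19.0, 8.68 to 17.6 and 16.01 to 23.3 FPKM, and PAX3 and MS4A1 were at or near 0 everywhere. The part of these markers in the results below was not tested. In bulk tissue, fewer cells of a type and less RNA per cell cannot be told apart.

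Of the 46 members, 38 averaged 1 FPKM or more across the 9 libraries, and these were tested with limma on log2(FPKM + 1), with Benjamini-Hochberg adjustment over all entries tested. A member is called at an adjusted p under 0.05. Against Large White, 18 members were higher in Tibetan muscle and 17 were lower, and 3 were not called (FOSL1, KLF10 and KLF4). Over all entries tested, 13.0% were called higher and 63.2% lower. The 18 risen members were FOS, JUNB, EGR1, EGR2, EGR3, NR4A2, NR4A3, IER2, IER3, IER5, GADD45B, ZFP36, ATF3, ATF5, CEBPG, MAFF, KLF13 and KLF9. Of these, EGR2, EGR3, KLF9 and NR4A3 averaged under 1 FPKM in both other breeds and passed the filter only through their Tibetan values. MYCN averaged over 1 FPKM in both other breeds and was left out through its low Tibetan values. The counts of higher and lower members therefore depend in part on the filter. Under median-ratio scaling 22 members were called higher and 7 lower, where 32.4% and 33.0% of all entries were. The members' median relative difference was 1.16, against 0 over all entries by construction. An F test across the 3 breed means called 33 members, and 77.6% of all entries.

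**Figure D1:**
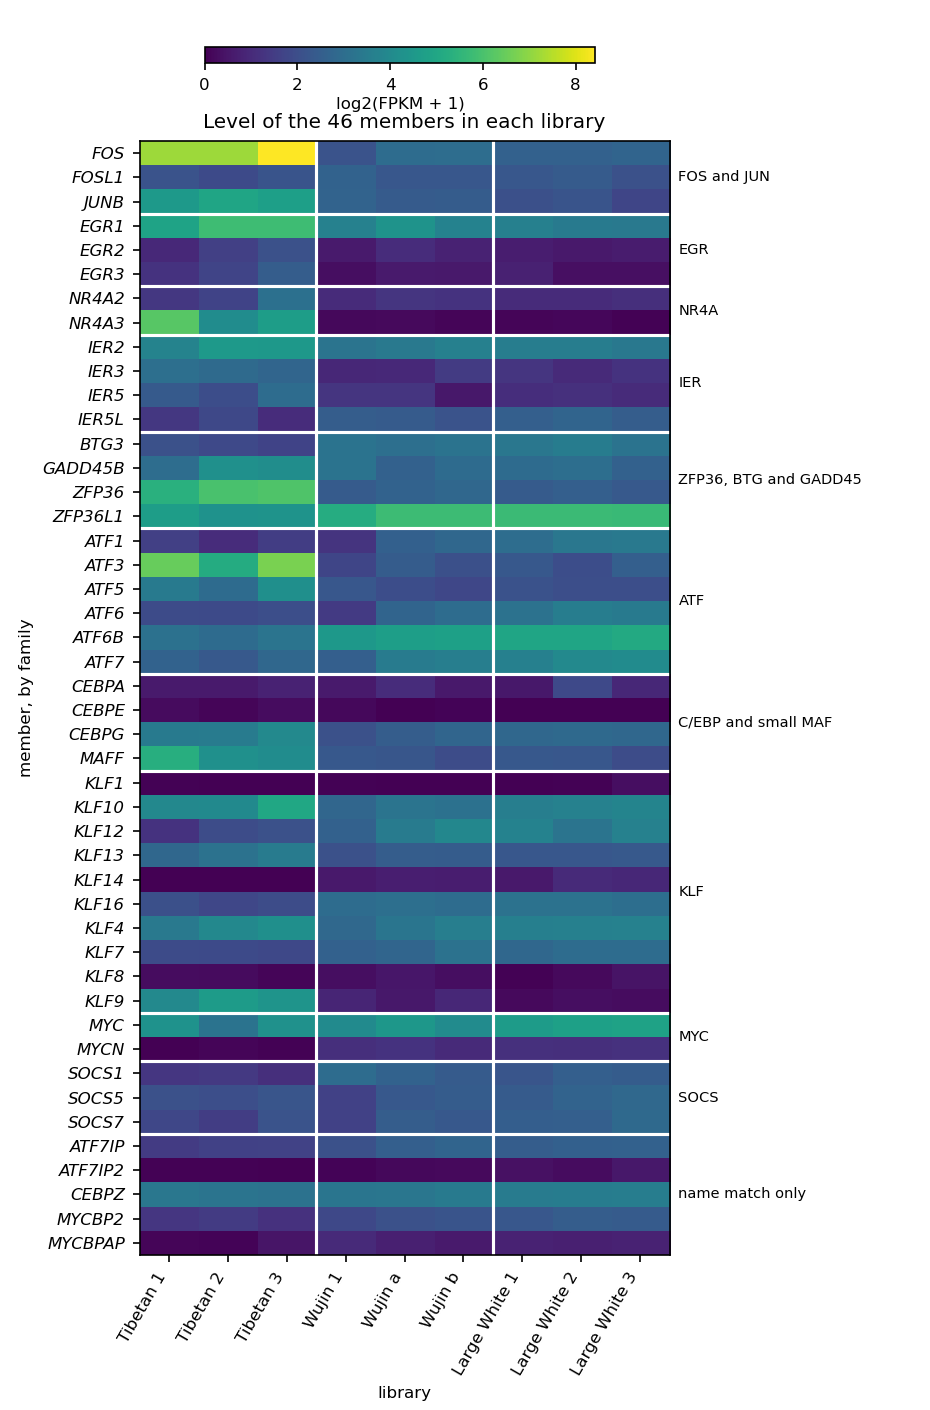
Level of each of the 46 members (rows, grouped by family) in each of the 9 libraries (columns), as log2(FPKM + 1) on a colour scale. FOS, NR4A3, ATF3 and ZFP36 are bright in the 3 Tibetan libraries and dark elsewhere, while ZFP36L1 and ATF6B are brighter in Wujin and Large White libraries.

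FOS, the partner of JUN proteins in the AP-1 transcription factor, was the most abundant member in Tibetan muscle. It was at 144, 145 and 342 FPKM in Tibetan 1, 2 and 3, at 3.46, 6.87 and 7.11 FPKM in Wujin 1, a and b, and at 5.06, 5.16 and 5.55 FPKM in Large White 1, 2 and 3. Every Tibetan library was above every other library, and Tibetan 3 was the highest. The mean was 210.4 ± 114 in Tibetan and 5.26 ± 0.258 in Large White libraries (FPKM, SD, n = 3), a ratio of 40.01, and the fitted difference was 4.95 ± 0.34, relative 5.73 (adjusted p = 1.92e-06) by limma. Ranked by that difference, FOS stood at place 22 of 13106 entries against Large White and at place 14 against Wujin. JUNB, a JUN protein that can pair with FOS, was at 21.8, 30.3 and 26.2 FPKM in Tibetan, 5.48, 4.38 and 4.5 in Wujin and 3.12, 3.58 and 2.38 in Large White libraries. Its Tibetan values lay above all others and its Wujin values above those of Large White. The fitted difference was 2.75 ± 0.16, relative 3.52 (adjusted p = 7.71e-07) for Tibetan minus Large White, and for Wujin minus Large White it was 0.53 ± 0.16, relative 0.73 (adjusted p = 0.0728), not called. FOSL1, a FOS relative with later induction, was at 3.47, 2.67 and 3.55 FPKM in Tibetan, 5.33, 3.94 and 3.83 in Wujin and 3.83, 4.36 and 3.3 in Large White libraries. Tibetan and Large White values overlapped, with a fitted difference of -0.19 ± 0.16, relative 0.58 (adjusted p = 0.285), not called, which turned to 0.57 and was called higher under median-ratio scaling.

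All 3 EGR members, zinc finger factors induced through SRF, were called higher in Tibetan than in Large White muscle, beside 13.0% of all entries. EGR2 and EGR3 passed the filter only through their Tibetan values, so the direction of their differences depends in part on the filter. EGR1 was at 28.2, 54.8 and 54.6 FPKM in Tibetan, 11.9, 19.2 and 12.4 in Wujin and 11.6, 10.1 and 9.54 in Large White libraries. Tibetan 1 was the lowest of its breed and still above the highest Wujin value. The fitted difference of EGR1 from Large White was 1.98 ± 0.27, relative 2.75 (adjusted p = 0.000123). EGR2 and EGR3 were far less abundant, and in both the lowest Tibetan library was Tibetan 1 and the highest Tibetan 3. EGR2 was at 0.948, 2.03 and 3.21 FPKM in Tibetan and 0.614, 0.486 and 0.566 in Large White libraries, a fitted difference of 0.91 ± 0.26, relative 1.68 (adjusted p = 0.01). EGR3 was at 1.36, 2.34 and 4.65 FPKM in Tibetan and 0.708, 0.269 and 0.271 in Large White libraries, a fitted difference of 1.34 ± 0.29, relative 2.11 (adjusted p = 0.0023). Against Wujin, EGR2 overlapped between the breeds and its difference of 0.72 ± 0.26, relative 1.27 (adjusted p = 0.0339) was lost without Tibetan 2, Tibetan 3, Wujin 1 or Wujin b (adjusted p by limma 0.0736 to 0.118), and was 0.45 without Tibetan 3.

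The NR4A members, orphan nuclear receptors controlled mainly by their own abundance, were both called higher against Large White, beside 13.0% of all entries. NR4A3 passed the filter only through its Tibetan values, so the direction of its difference depends in part on the filter. NR4A3 was at 73.5, 16.1 and 25 FPKM in Tibetan, 0.13, 0.155 and 0.0799 in Wujin and 0.078, 0.113 and 0.0443 in Large White libraries. It was near 0 in all 6 libraries of the other breeds and highest in Tibetan 1, and no ratio is given against levels so low. The fitted difference was 4.90 ± 0.43, relative 5.67 (adjusted p = 8.05e-06), at place 28 of 13106, and 4.29 without Tibetan 1. NR4A2 was at 1.56, 2.25 and 7.56 FPKM in Tibetan, 1.04, 1.45 and 1.34 in Wujin and 1.05, 1.07 and 1.18 in Large White libraries. Its groups did not overlap, but Tibetan 3 stood far above Tibetan 1 and 2. The fitted difference of NR4A2 was 0.98 ± 0.37, relative 1.75 (adjusted p = 0.0368), was 0.46 without Tibetan 3, and lost its call without any 1 of the Large White libraries (adjusted p by limma 0.0726 to 0.0843). The F test did not call it.

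Of the 4 IER members, named for immediate early response, 3 were called higher in Tibetan than in Large White muscle and 1 lower. Over all entries 13.0% were higher and 63.2% lower. IER2, a transcriptional regulator, was at 12.6, 22.6 and 21.3 FPKM in Tibetan, 8.55, 9.69 and 11.8 in Wujin and 10.8, 10.8 and 9.4 in Large White libraries. Tibetan 1 was close to the highest values of the other breeds, and the fitted difference was 0.77 ± 0.21, relative 1.54 (adjusted p = 0.00824). IER3, which limits apoptosis, was at 7.49, 6.51 and 5.76 FPKM in Tibetan and 0.923 to 1.75 FPKM in the other libraries, with a fitted difference of 1.73 ± 0.17, relative 2.51 (adjusted p = 1.65e-05). IER5, a regulator of heat shock factor, was at 4.22, 3.01 and 6.82 FPKM in Tibetan and 0.458 to 1.47 FPKM elsewhere, with a fitted difference of 1.35 ± 0.27, relative 2.13 (adjusted p = 0.00145). The related IER5L was lower, at 1.55, 2.52 and 1.09 FPKM in Tibetan against 4.61, 4.29 and 3.44 in Wujin and 4.82, 5.63 and 4.54 in Large White libraries. Its fitted difference was -1.17 ± 0.19, relative -0.40 (adjusted p = 0.000453), and it was not called under median-ratio scaling (-0.46).

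Among the brakes on growth and on mRNA, ZFP36 and ZFP36L1 moved in opposite directions. ZFP36, also called tristetraprolin, binds AU-rich elements and speeds mRNA decay. It was at 39.5, 62.6 and 68.5 FPKM in Tibetan, 4.35, 5.31 and 6.005 in Wujin and 4.33, 4.8 and 4.16 in Large White libraries. Tibetan values were above all others, the mean was 56.9 ± 15.3 in Tibetan and 4.43 ± 0.332 in Large White libraries (FPKM, SD, n = 3), and the fitted difference was 3.38 ± 0.20, relative 4.15 (adjusted p = 7.91e-07). ZFP36L1, a paralogue that binds the same elements, was at 24.5, 18.5 and 19.1 FPKM in Tibetan, 36.5, 53.4 and 54.3 in Wujin and 52.1, 51.9 and 51 in Large White libraries. All Tibetan values lay below the others, with a fitted difference of -1.29 ± 0.17, relative -0.52 (adjusted p = 0.000111), and it was still called lower under median-ratio scaling (-0.34). In Large White muscle ZFP36L1 was the more abundant of the pair, and in Tibetan muscle ZFP36 was. BTG3, an antiproliferative protein, was at 3.21, 2.66 and 2.25 FPKM in Tibetan, 8.18, 7.4 and 8.16 in Wujin and 9.13, 10.7 and 8.27 in Large White libraries. Its groups did not overlap and the fitted difference was -1.48 ± 0.14, relative -0.71 (adjusted p = 1.09e-05). GADD45B, a stress sensor upstream of p38, was at 7.01, 17.9 and 16.4 FPKM in Tibetan, 8.28, 5.07 and 6.66 in Wujin and 6.62, 7.2 and 5.12 in Large White libraries. Tibetan 1 lay within the range of the other breeds, and the fitted difference of 0.93 ± 0.31, relative 1.70 (adjusted p = 0.0222) was lost without Tibetan 2, Tibetan 3 or Large White 3 (adjusted p by limma 0.0768 to 0.0853). Against Wujin its difference of 0.87 ± 0.31, relative 1.42 (adjusted p = 0.033) was lost without Tibetan 2, Tibetan 3, Large White 1, Wujin a or Wujin b.

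Of the 6 ATF members, ATF3 and ATF5 were called higher in Tibetan than in Large White muscle and ATF1, ATF6, ATF6B and ATF7 lower, beside 13.0% and 63.2% of all entries. Under median-ratio scaling ATF6 and ATF7 were not called, at -0.65 and -0.42 (adjusted p by limma 0.0695 and 0.107). Transcripts of ATF3 and ATF5 are known to be induced by stress. ATF3 was at 86.5, 34.9 and 104 FPKM in Tibetan, 2.39, 4.49 and 3.18 in Wujin and 3.98, 2.98 and 4.88 in Large White libraries. Tibetan 2 was the lowest of its breed and still far above every other library. The mean was 75.2 ± 36 in Tibetan and 3.95 ± 0.948 in Large White libraries (FPKM, SD, n = 3), a ratio of 19.1, and the fitted difference was 3.82 ± 0.37, relative 4.60 (adjusted p = 1.46e-05). ATF5, a factor of the mitochondrial stress response, was at 9.75, 6.67 and 17.2 FPKM in Tibetan, 3.86, 2.97 and 2.5 in Wujin and 3.31, 3.04 and 3.06 in Large White libraries. The groups did not overlap, and the fitted difference was 1.47 ± 0.27, relative 2.24 (adjusted p = 0.00094).

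ATF6B, a membrane-bound sensor of the endoplasmic reticulum, was at 7.9, 6.77 and 8.52 FPKM in Tibetan, 21.4, 25.3 and 26.6 in Wujin and 30.1, 29.8 and 33.5 in Large White libraries. The 3 breeds formed 3 separate ranges, and the fitted difference of -1.88 ± 0.13, relative -1.11 (adjusted p = 1.62e-06) was also called under median-ratio scaling (-0.98). ATF6, its better known relative, was at 2.76, 2.72 and 3.03 FPKM in Tibetan, 1.71, 5.51 and 6.86 in Wujin and 8.08, 11 and 9.81 in Large White libraries. ATF7, a factor of the ATF2 group, was at 5.24, 4.08 and 6.07 FPKM in Tibetan, 4.91, 10.4 and 11.2 in Wujin and 11.6, 14.5 and 15.6 in Large White libraries. ATF1, a CREB relative, was at 2.002, 1.12 and 1.89 FPKM in Tibetan, 1.41, 4.93 and 6.06 in Wujin and 7.15, 9.05 and 9.59 in Large White libraries. In all 3 of these genes Wujin 1 lay within or below the Tibetan range, and Wujin a and b lay above it. Against Large White the fitted differences were -1.85 ± 0.36, relative -1.08 (adjusted p = 0.00113) for ATF1, -1.46 ± 0.34, relative -0.69 (adjusted p = 0.00325) for ATF6 and -1.28 ± 0.27, relative -0.51 (adjusted p = 0.00182) for ATF7, and ATF1 was also called under median-ratio scaling. Against Wujin none of the 3 was called with all libraries, and all 3 were called lower without Wujin 1, at -1.30 for ATF1, -0.90 for ATF6 and -0.96 for ATF7 (adjusted p by limma 0.000389, 0.000672 and 0.00122).

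CEBPG and MAFF are dimer partners without a transactivation domain of their own. Both were called higher in Tibetan than in Large White muscle, beside 13.0% of all entries. MAFF was at 37.7, 17.6 and 16 FPKM in Tibetan, 4.02, 3.76 and 2.88 in Wujin and 4.03, 3.89 and 2.92 in Large White libraries. It was highest in Tibetan 1, as NR4A3 was, and the fitted difference was 2.33 ± 0.29, relative 3.10 (adjusted p = 6.58e-05). CEBPG, a partner of ATF4, was at 9.86, 10.4 and 14.6 FPKM in Tibetan, 3.25, 4.64 and 5.72 in Wujin and 5.97, 6.35 and 6.09 in Large White libraries. All Tibetan values were above the others, and the fitted difference was 0.80 ± 0.19, relative 1.58 (adjusted p = 0.00401). CEBPA, which drives fat and myeloid cell formation, and CEBPE, a granulocyte factor, were below the filter. CEBPA was at 0.509, 0.536 and 0.76 FPKM in Tibetan, 0.539, 1.08 and 0.476 in Wujin and 0.463, 2.64 and 0.932 in Large White libraries, and CEBPE was at most 0.214 FPKM and is listed at 0 in all Large White libraries.

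The KLF family, zinc finger factors that bind GC-rich and CACCC elements, had 10 members and 7 tested. KLF9 and KLF13 were higher in Tibetan than in Large White muscle, KLF7, KLF12 and KLF16 were lower, and KLF4 and KLF10 were not called. Over all entries 13.0% were higher and 63.2% lower. KLF9, a target of glucocorticoid and thyroid hormone receptors, was at 14.7, 23.5 and 19.7 FPKM in Tibetan, 0.85, 0.451 and 0.899 in Wujin and 0.164, 0.243 and 0.203 in Large White libraries. The 3 breeds formed 3 separate ranges. The mean was 19.3 ± 4.43 in Tibetan, 0.734 ± 0.246 in Wujin and 0.203 ± 0.0399 in Large White libraries (FPKM, SD, n = 3). The fitted difference was 4.05 ± 0.18, relative 4.82 (adjusted p = 1.74e-07), and for Wujin minus Large White it was 0.52 ± 0.18, relative 0.71 (adjusted p = 0.0943), not called. With a pseudocount of 0.1 in place of 1 that difference was 1.42 and was called (adjusted p by limma 0.047).

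KLF13, a repressor and activator in blood and heart cells, was at 6.08, 8.05 and 10.4 FPKM in Tibetan, 3.27, 4.61 and 4.49 in Wujin and 3.83, 3.86 and 4.12 in Large White libraries, a fitted difference of 0.87 ± 0.18, relative 1.64 (adjusted p = 0.00196). KLF10, an early gene of the TGF-beta response, was at 14.1, 14.9 and 31.5 FPKM in Tibetan, 5.8, 8.4 and 7.74 in Wujin and 11.2, 12.1 and 12.9 in Large White libraries. Its Tibetan values were above all others, while the fitted difference from Large White was 0.60 ± 0.27, relative 1.38 (adjusted p = 0.0693), not called, and that from Wujin was 1.27 ± 0.27, relative 1.82 (adjusted p = 0.00263), called. The difference from Large White turned on single libraries: without Tibetan 1 or Tibetan 2 it was 0.80 or 0.76 and was called, and without Tibetan 3 it was 0.25 and was not (adjusted p by limma 0.0328, 0.0482 and 0.192). KLF4, known from pluripotent and endothelial cells, was at 9.68, 14.3 and 17.3 FPKM in Tibetan, 6.22, 8.78 and 11.2 in Wujin and 11.4, 11.7 and 12.1 in Large White libraries. It overlapped with both other breeds, and its difference from Wujin of 0.60 ± 0.23, relative 1.15 (adjusted p = 0.0437) was lost without any 1 library except Tibetan 1 and Wujin b (adjusted p by limma 0.0627 to 0.149). Under median-ratio scaling both KLF10 and KLF4 were called higher against Large White, at 1.52 and 1.08.

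The lower KLF members did not overlap between Tibetan and the other breeds. KLF12, a transcriptional repressor, was at 1.33, 2.89 and 3.28 FPKM in Tibetan, 5.14, 10.4 and 14.1 in Wujin and 12.3, 8.54 and 12 in Large White libraries, a fitted difference of -1.80 ± 0.34, relative -1.03 (adjusted p = 0.00101). KLF16 was at 3.13, 2.46 and 2.91 FPKM in Tibetan, 6.85, 7.4 and 6.96 in Wujin and 8.04, 8.02 and 7.24 in Large White libraries, a fitted difference of -1.20 ± 0.11, relative -0.42 (adjusted p = 1.17e-05). KLF7, known from neuron development, was at 2.53 to 2.82 FPKM in Tibetan libraries and 5.18 to 8.07 elsewhere, a fitted difference of -1.05 ± 0.15, relative -0.27 (adjusted p = 0.000201), and it was not called under median-ratio scaling (-0.26). KLF14 is listed at 0 in all 3 Tibetan libraries and was at 0.488, 0.643 and 0.612 FPKM in Wujin and 0.488, 1.02 and 0.924 in Large White libraries. KLF1, the erythroid factor, and KLF8 were at most 0.233 and 0.428 FPKM in any library.

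MYC, a growth factor response gene that drives ribosome and cell cycle genes, was called lower in Tibetan than in Large White muscle. It was at 18.7, 8.24 and 18.1 FPKM in Tibetan, 15.3, 21.1 and 15.8 in Wujin and 23.9, 26.4 and 27.7 in Large White libraries. Large White values were above all others, and Tibetan and Wujin values overlapped. The fitted difference from Large White was -0.83 ± 0.27, relative -0.06 (adjusted p = 0.0196), and under median-ratio scaling it was 0.09 and not called. The call was lost without Large White 2 or Large White 3 (adjusted p by limma 0.0504 and 0.0583). Without Tibetan 2, the lowest of its breed, the difference was -0.47 and still called (adjusted p by limma 0.0226). MYCN, the MYC relative of embryonic progenitor cells, was at 0.0213, 0.0774 and 0.0257 FPKM in Tibetan, 1.21, 1.38 and 0.989 in Wujin and 1.26, 1.17 and 1.3 in Large White libraries. Its mean over all libraries was under the filter, so it entered the fit only where that filter was dropped, and there its fitted difference from Large White was -1.11 (adjusted p by limma 1.24e-05).

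The SOCS proteins shut off cytokine receptors. All 3 matched members were called lower in Tibetan than in Large White muscle, beside 63.2% of all entries. Their median relative difference was -0.05. Under median-ratio scaling none was called against Large White, and SOCS5 turned to 0.26. Against Wujin under that scaling, SOCS1 was called lower (-0.89) and SOCS5 higher (0.58), and SOCS7 was not called. SOCS1, an inhibitor of JAK kinases, was at 1.53, 1.62 and 1.17 FPKM in Tibetan, 6.88, 5.25 and 4.3 in Wujin and 3.68, 4.88 and 4.5 in Large White libraries. Tibetan values lay below all others, and the fitted differences were -1.13 ± 0.17, relative -0.36 (adjusted p = 0.000237) from Large White and -1.39 ± 0.17, relative -0.84 (adjusted p = 8.01e-05) from Wujin. SOCS5 was at 3.27, 3.09 and 3.71 FPKM in Tibetan, 2.13, 3.98 and 4.44 in Wujin and 4.35, 5.36 and 6.26 in Large White libraries. SOCS7 was at 2.46, 1.88 and 3.5 FPKM in Tibetan, 2.12, 4.54 and 3.96 in Wujin and 4.78, 4.87 and 6.38 in Large White libraries. In both, Wujin 1 was among or below the Tibetan values. The fitted difference from Large White was -0.53 ± 0.21, relative 0.24 (adjusted p = 0.0454) for SOCS5 and -0.83 ± 0.24, relative -0.05 (adjusted p = 0.0115) for SOCS7. The call of SOCS5 was also lost without any 1 Tibetan library, Large White 2, Large White 3 or Wujin a (adjusted p by limma 0.0542 to 0.149).

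The members matched by name alone were called lower against Large White, as were 63.2% of all entries, or were below the filter. CEBPZ turned upward under median-ratio scaling. ATF7IP, a partner of a histone methyltransferase, was at 1.78, 2.07 and 2.14 FPKM in Tibetan, 3.26, 4.91 and 5.54 in Wujin and 4.63, 4.96 and 5.07 in Large White libraries, with a fitted difference of -0.98 ± 0.16, relative -0.20 (adjusted p = 0.000461). It was at -0.24 and not called under median-ratio scaling, and at -0.10 and not called after quantile normalization (adjusted p by limma 0.126 and 0.464). MYCBP2, a ubiquitin ligase, was at 1.53, 1.73 and 1.29 FPKM in Tibetan, 2.55, 3.25 and 3.55 in Wujin and 3.93, 4.54 and 4.29 in Large White libraries, with a fitted difference of -1.07 ± 0.14, relative -0.29 (adjusted p = 8.34e-05), and after quantile normalization it was at -0.19 and not called. CEBPZ, a CCAAT-binding protein, was at 8.09 to 9.04 FPKM in Tibetan and 10.2 to 10.9 in Large White libraries. Its fitted difference of -0.28 ± 0.10, relative 0.49 (adjusted p = 0.0343) turned to 0.61 and was called higher under median-ratio scaling. The call of CEBPZ was lost without any 1 Large White library, Tibetan 2, Tibetan 3 or Wujin a (adjusted p by limma 0.0513 to 0.103). ATF7IP2 and MYCBPAP were at most 0.469 and 1.01 FPKM in any library.

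**Figure D2:**
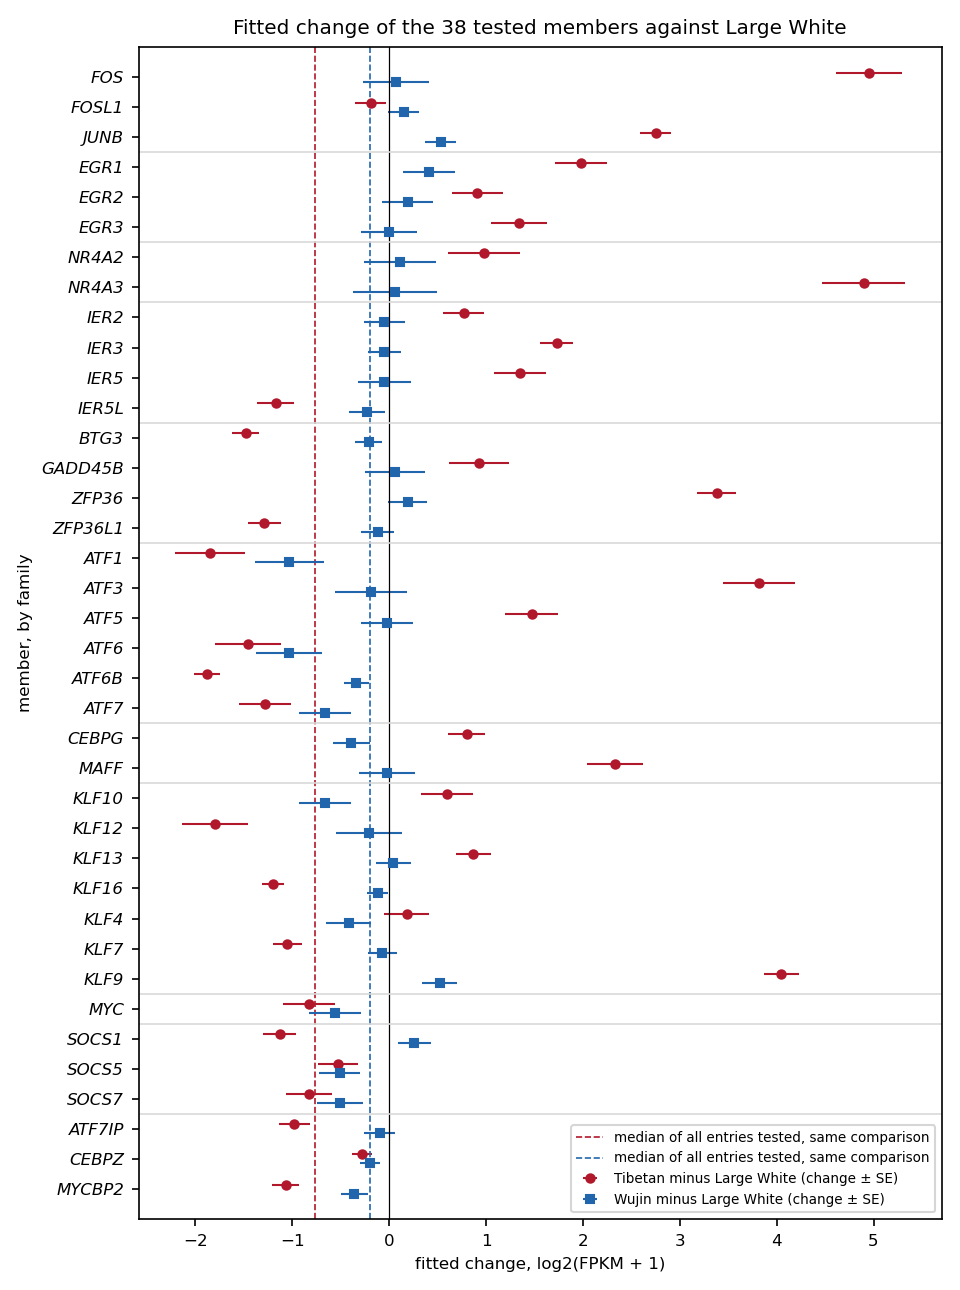
Fitted difference from Large White of the 38 tested members (rows, by family), in log2(FPKM + 1), for Tibetan (circles) and Wujin (squares), with bars of 1 SE and dashed lines at the median of all entries tested. FOS (4.95), NR4A3 (4.90), KLF9 (4.05) and ATF3 (3.82) lie farthest to the right for Tibetan, while most Wujin points lie near 0.

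Between the other pair of breeds no member was called. Wujin minus Large White gave 0 of 38 members higher and 0 lower by limma, where 1.67% and 4.85% of all entries were called. At an unadjusted p under 0.05, 2 members were higher and 7 lower, or 5.26% and 18.4%, beside 6.0% and 26.4% of all entries. JUNB and KLF9 had the highest Wujin minus Large White differences, and ATF1 and ATF6 the lowest, at -1.03 ± 0.36, relative -0.84 (adjusted p = 0.0913) and -1.03 ± 0.34, relative -0.83 (adjusted p = 0.0829). Without Wujin b, ATF1 and ATF6 were called lower, both at -1.33 (adjusted p by limma 0.047 and 0.0418). Without Wujin 1 both were at -0.56 and not called. The median relative difference of the members in this comparison was 0.11.

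Tibetan minus Wujin is the test of whether the 2 indigenous breeds differ. It called 19 members higher and 10 lower in Tibetan muscle, beside 13.8% and 53.9% of all entries, and under median-ratio scaling 22 higher and 7 lower, beside 30.9% and 30.4%. The 19 were KLF10, KLF4 and the risen members named against Large White except NR4A2, which was at 0.87 ± 0.37, relative 1.42 (adjusted p = 0.0642), not called, at 1.22 and called without Tibetan 1, and at 0.34 without Tibetan 3. The 10 lower were IER5L, BTG3, ZFP36L1, ATF6B, KLF7, KLF12, KLF16, SOCS1, ATF7IP and MYCBP2. Without Wujin 1 it called 17 higher and 14 lower, the added lower members being ATF1, ATF6, ATF7 and SOCS7. This comparison shares the Tibetan libraries with Tibetan minus Large White, and both comparisons with Large White share the Large White libraries. The fitted Tibetan minus Wujin differences of the leading members were 4.88 ± 0.34, relative 5.43 (adjusted p = 2.62e-06) for FOS, 4.84 ± 0.43, relative 5.39 (adjusted p = 1.14e-05) for NR4A3 and 4.02 ± 0.37, relative 4.57 (adjusted p = 1.43e-05) for ATF3. They were 3.54 ± 0.18, relative 4.09 (adjusted p = 4.33e-07) for KLF9, 3.19 ± 0.20, relative 3.74 (adjusted p = 1.45e-06) for ZFP36 and 2.35 ± 0.29, relative 2.90 (adjusted p = 8.06e-05) for MAFF. Places by Tibetan minus Wujin difference among 13106 entries were 17 for NR4A3, 59 for ATF3, 81 for KLF9 and 110 for ZFP36.

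The ranges of the libraries, taken from the same values as the fit and so no separate support for it, were read for the Tibetan comparisons. Among the 38 tested members, all 3 Tibetan libraries lay above all 3 Large White libraries in 18 (KLF10 among them and GADD45B not) and below them in 17, beside 14.1% and 66.5% of all entries. Against Wujin the Tibetan libraries lay above in 17 and below in 11, beside 14.2% and 53.5%. Summed over all 46 members, the level was 628, 572 and 907 FPKM in Tibetan 1, 2 and 3, 222 to 292 FPKM in the Wujin and 302 to 319 FPKM in the Large White libraries. Over the 18 members chosen as called higher, it was 507, 466 and 764 FPKM in Tibetan 1, 2 and 3, and 61.9 to 77.1 FPKM in the 6 other libraries. Over the 17 chosen as called lower, it was 92.7, 73.5 and 88.7 FPKM in Tibetan 1, 2 and 3, 137 to 193 FPKM in the Wujin and 205 to 223 FPKM in the Large White libraries.

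**Figure D3:**
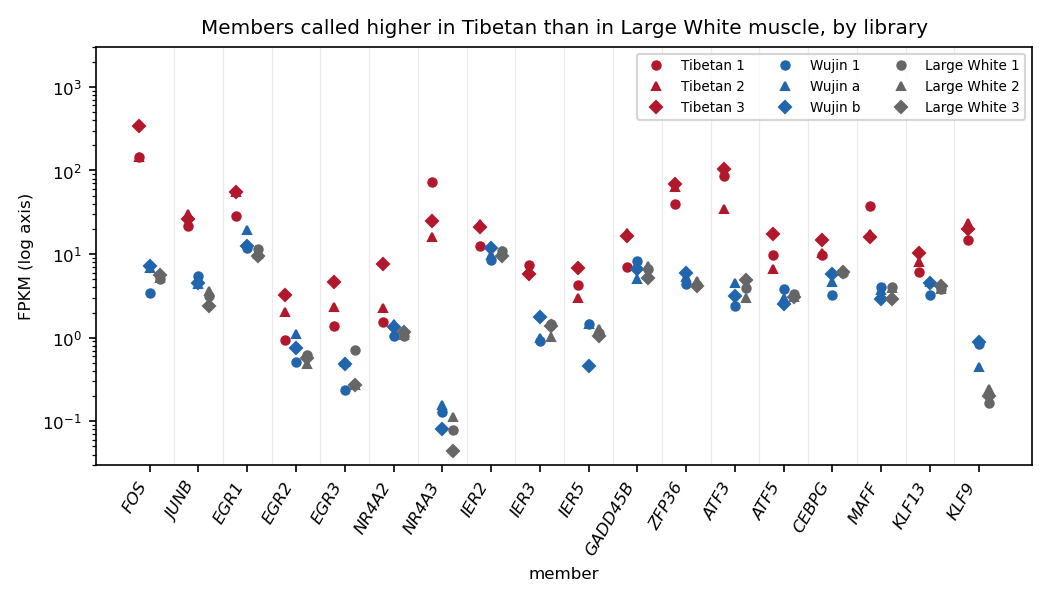
FPKM (log axis) of the 18 members called higher in Tibetan than in Large White muscle, with 1 point per library, Tibetan in red, Wujin in blue and Large White in grey, and the marker shape for the library. Tibetan points lie above all Large White points in 17 of the 18, with GADD45B the exception, and Tibetan points spread widely within a gene, as for NR4A3 from 16.1 to 73.5 FPKM.

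The risen members also differed among the Tibetan libraries themselves. The highest Tibetan value was a median of 2.31 times the lowest over the 18 risen members, beside 1.44 times over the 1703 entries called higher. For the 17 lower members it was 1.35 times, beside 1.42 times over the 8280 entries called lower. Tibetan 1 held the lowest of the 3 values in 12 of the 18 risen members (66.7%), beside 22% of the entries called higher. Tibetan 3 held the highest value in 10 of the 18 (55.6%), beside 43.0%. NR4A3, MAFF and IER3 had their highest value in Tibetan 1. FOS, EGR2, EGR3, NR4A2, ZFP36, CEBPG and KLF13 were lowest in Tibetan 1 and highest in Tibetan 3, though FOS was nearly equal in Tibetan 1 and Tibetan 2.

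Genes around these families were taken from lists of upstream regulators and related responders, and each list but the last is described by its counts for Tibetan minus Large White. They stand beside 13.0% higher and 63.2% lower over all entries, and 32.4% and 33.0% under median-ratio scaling. Of 14 tested genes among other immediate early and feedback genes, 6 were called higher and 5 lower, and under median-ratio scaling 9 and 2. DUSP1, the phosphatase that switches off MAP kinases in the nucleus, was at 163, 282 and 274 FPKM in Tibetan, 29.7, 32.3 and 32.3 in Wujin and 33.2, 28.1 and 27.7 in Large White libraries. Its Tibetan values were above all others, with a fitted difference of 2.93 ± 0.20, relative 3.71 (adjusted p = 1.74e-06). CSRNP1, a nuclear protein induced by AXIN1, was at 7.85, 6.58 and 9.37 FPKM in Tibetan, 1.7, 1.54 and 1.68 in Wujin and 1.2, 1.22 and 1.27 in Large White libraries, a fitted difference of 1.99 ± 0.13, relative 2.76 (adjusted p = 1.56e-06). CCN1, a secreted matrix protein induced by serum, was at 46, 40.6 and 48.7 FPKM in Tibetan and 13.8 to 16.6 FPKM elsewhere, a fitted difference of 1.60 ± 0.11, relative 2.37 (adjusted p = 1.94e-06). SPRY2, an inhibitor of growth factor signalling, was lower, at 15.6, 16.1 and 14.8 FPKM in Tibetan, 37.1, 45.2 and 51 in Wujin and 56, 54.4 and 54.7 in Large White libraries, a fitted difference of -1.76 ± 0.13, relative -0.99 (adjusted p = 2.39e-06). The median relative difference of this list was 1.05.

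Of 16 tested genes of SRF, CREB and ERK control, 2 were called higher and 10 lower, and under median-ratio scaling 6 and 6, and these are close to the shares over all entries under either scaling. ELK3, an SRF partner, fell from 12.3 ± 0.981 in Large White to 2.52 ± 0.246 in Tibetan libraries (FPKM, SD, n = 3), and RPS6KA5, a kinase of CREB and histone H3, from 4.25 ± 0.427 to 0.897 ± 0.147. RPS6KA1 and MAP2K1 were also called lower, at -1.34 ± 0.14, relative -0.56 (adjusted p = 1.96e-05) and -1.57 ± 0.23, relative -0.80 (adjusted p = 0.000205). Of 14 tested JNK and p38 stress kinase genes, 1 was called higher and 5 lower, both below the shares over all entries. Under median-ratio scaling 7 were higher, above the 32.4% of all entries, and 2 lower. The 1 higher without that scaling was MAPKAPK2, a p38 target kinase that phosphorylates the ZFP36 protein, at 46.4, 37.3 and 52.4 FPKM in Tibetan, 25.7, 21 and 20.8 in Wujin and 19.6, 17.3 and 18.8 in Large White libraries. Its groups did not overlap, and the fitted difference was 1.23 ± 0.15, relative 2.0 (adjusted p = 5.56e-05). MAP3K1, MAP3K5 and MAP3K7, which start the kinase cascades, were lower, at -0.95 ± 0.17, relative -0.18 (adjusted p = 0.000695), -0.71 ± 0.14, relative 0.06 (adjusted p = 0.00148) and -1.35 ± 0.26, relative -0.58 (adjusted p = 0.0012). MAP3K5 was at -0.24 and not called under median-ratio scaling, and at 0.05 after quantile normalization, where MAP3K1 and MAP3K7 were at -0.16 and -0.50 and not called.

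Of 13 tested genes of the integrated and endoplasmic reticulum stress response, 3 were called higher and 8 lower, and under median-ratio scaling 4 and 5. These counts are close to the shares over all entries under either scaling. HSPA5, the chaperone of the reticulum that holds the sensors inactive, was at 38.6, 38.5 and 37.4 FPKM in Tibetan, 61.2, 98.6 and 98.1 in Wujin and 141, 152 and 152 in Large White libraries, a fitted difference of -1.93 ± 0.18, relative -1.16 (adjusted p = 9.95e-06). HSP90B1, another chaperone there, was at 33.9, 32.5 and 29 FPKM in Tibetan, 81.7, 92.4 and 104 in Wujin and 123, 133 and 125 in Large White libraries, a fitted difference of -1.96 ± 0.12, relative -1.19 (adjusted p = 9.64e-07). EIF2AK3, the kinase PERK, and XBP1, a factor of the unfolded protein response, were called lower as well, at -1.26 ± 0.13, relative -0.49 (adjusted p = 1.78e-05) and -1.12 ± 0.12, relative -0.35 (adjusted p = 2.18e-05), and XBP1 was at -0.16 and not called under median-ratio scaling. The 3 ranges of HSPA5 did not overlap, and neither did those of HSP90B1, with Wujin between the other breeds in both.

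Of 11 tested genes among other basic leucine zipper factors and NRF2 control, 3 were called higher and 4 lower, and under median-ratio scaling 6 and 2. NFIL3, a repressor tied to the circadian clock, was at 27.4, 13.2 and 17.2 FPKM in Tibetan, 2.87, 4.67 and 4.07 in Wujin and 9.35, 9.07 and 11.1 in Large White libraries, 3 separate ranges with Wujin lowest. Its fitted difference from Large White was 0.85 ± 0.25, relative 1.62 (adjusted p = 0.0109). CREB3L1, a membrane-bound factor of collagen-secreting cells, was at 4.02, 3.17 and 2.56 FPKM in Tibetan, 32.7, 28.6 and 28.3 in Wujin and 19.4, 23.4 and 19.2 in Large White libraries, a fitted difference of -2.36 ± 0.15, relative -1.59 (adjusted p = 1.15e-06). KEAP1, the inhibitor of NRF2, was higher at 1.13 ± 0.16, relative 1.91 (adjusted p = 0.000151), and CREB3 was lower at -1.09 ± 0.10, relative -0.31 (adjusted p = 1.16e-05) but at -0.16 and not called under median-ratio scaling.

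Of 9 tested genes of the MYC and MAX network, 2 were called higher and 5 lower, and under median-ratio scaling 5 and 3. MXD3, a MAX partner that opposes MYC in dividing cells, was at 1.16, 2.62 and 1.4 FPKM in Tibetan, 35.2, 27.4 and 26.4 in Wujin and 31.5, 28.7 and 31.2 in Large White libraries. Its Tibetan values lay far below the others, with a fitted difference of -3.57 ± 0.20, relative -2.79 (adjusted p = 5.11e-07), and MXD4 was lower at -1.83 ± 0.17, relative -1.06 (adjusted p = 1.04e-05). The glucose-responsive factors MLXIP and MLXIPL were higher. MLXIPL averaged under 1 FPKM in both other breeds and passed the filter only through its Tibetan values. The count of higher genes in this list therefore depends in part on the filter. MLXIP was at 17.5, 12.1 and 25.5 FPKM in Tibetan and 1.99 to 4.16 FPKM elsewhere, and MLXIPL at 3.41, 4.9 and 2.62 FPKM in Tibetan and 0.0707 to 0.329 FPKM elsewhere, with fitted differences of 1.95 ± 0.26, relative 2.72 (adjusted p = 0.000101) and 1.99 ± 0.19, relative 2.77 (adjusted p = 1.2e-05).

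Of 18 tested genes of cytokine receptors and the JAK-STAT pathway upstream of SOCS, 2 were called higher and 9 lower, and under median-ratio scaling 10 and 4. PIAS3, an inhibitor of STAT3, was lower at -1.87 ± 0.13, relative -1.10 (adjusted p = 1.52e-06), as were TYK2, a JAK kinase, at -1.59 ± 0.18, relative -0.82 (adjusted p = 3.77e-05) and STAT2, a factor of the interferon response, at -1.45 ± 0.17, relative -0.68 (adjusted p = 4.45e-05). PIAS4 was lower at -0.89 ± 0.10, relative -0.12 (adjusted p = 3.65e-05) but at -0.04 and not called under median-ratio scaling. From a further list, of growth arrest genes, single genes are given without a count. The cyclin G genes went opposite ways. CCNG2 was at 1.45, 1.96 and 1.85 FPKM in Tibetan and 8.71 to 13.8 FPKM elsewhere, a fitted difference of -2.35 ± 0.13, relative -1.57 (adjusted p = 5.89e-07). CCNG1 was at 117, 133 and 131 FPKM in Tibetan, 43.5, 55.6 and 63.9 in Wujin and 93.9, 98 and 91.4 in Large White libraries, and its fitted difference of 0.42 ± 0.14, relative 1.19 (adjusted p = 0.024) was lost on leaving out Large White 1, Large White 3, Tibetan 2 or Tibetan 3. CNOT8, a deadenylase subunit that binds BTG proteins, was lower at -1.19 ± 0.13, relative -0.42 (adjusted p = 2.94e-05).

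**Figure D4:**
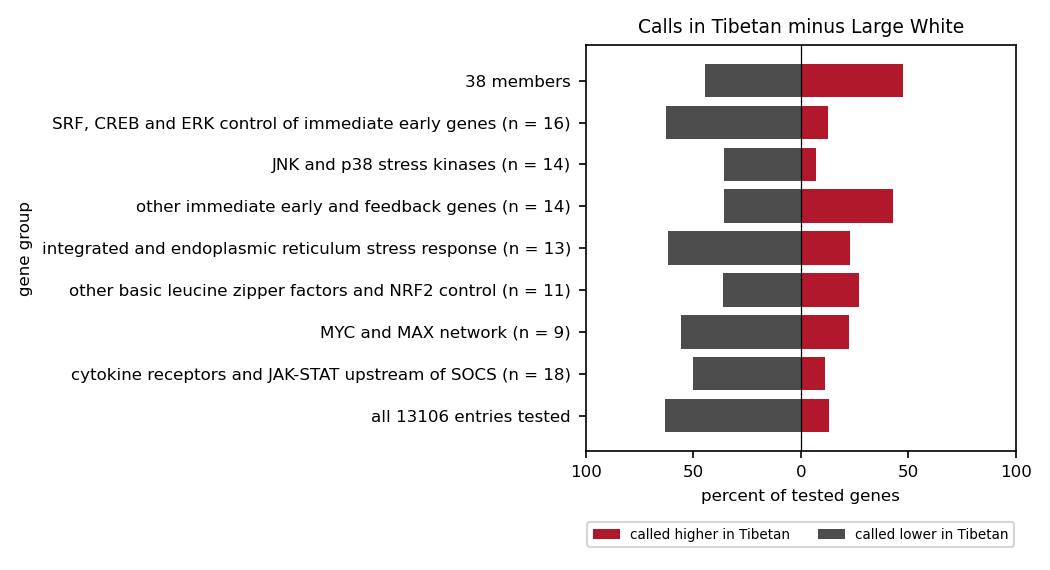
Percent of tested genes called higher (to the right) or lower (to the left) in Tibetan minus Large White, for the 38 members, the 7 related lists with counts and all 13106 entries. The members (18 of 38) and the other immediate early and feedback genes (6 of 14) reach farthest to the right, where all entries reach 13.0%. Under median-ratio scaling, which is not drawn, 22 of 38 and 9 of 14 were called higher, beside 32.4% of all entries. Most other lists were then also above that share: JAK-STAT 10 of 18, MYC and MAX 5 of 9, leucine zipper 6 of 11 and stress kinases 7 of 14. SRF, CREB and ERK control (6 of 16) and the stress response (4 of 13) were close to it.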

How the data were processed

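RNA of 9 libraries of embryonic pig longissimus dorsi muscle was measured. Per the labels' protocols, Trizol was used on tissue frozen on dry ice, and a TruSeq RNA kit for the libraries. The authors deposited 1 table of FPKM covering every library, as seen in its header. The submitters' processing notes name TopHat without a version, and of the quantifier, build and annotation the sources used here say nothing. The fragments behind each FPKM value are not known, and no counting interval was made.

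Gene symbols were matched by identifier for 11179 entries (56.9%). All sample columns were used. The 2 Wujin columns under 1 header were taken as Wujin libraries without a number. The 13106 entries averaging 1 FPKM or more were fitted as log2(FPKM + 1), with limma 3.58.1 in R 4.3.3, as 3 breed means over all 9 libraries with a trend on mean expression. The Benjamini-Hochberg adjustment ran over all of them. The pseudocount makes differences of low genes smaller than their FPKM ratios. The fit was run on simulated data in which few genes were shifted and the median was not. These data differ in both, so that run cannot check the calls made here. Tables and plots were made with Python 3.11.15.

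The members and gene lists were chosen with earlier results of these data known. Every member is accounted for, with values in every library for those called by the F test with a mean of at least 5 FPKM, or highest in their family. From each related list, up to 4 genes of smallest F test p are named, except for 1 gene that is not reported here, nor is the count of its list; other members were given values after these were seen. Alternatives were other pseudocounts, filters, scalings and a fold limit, the libraries of 1 pair alone, a replicate block, and leaving out each library.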

Additional observations from a re-analysis of the deposited data

How the results depend on the processing

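Members called lower in Tibetan minus Large White numbered 10 with a mean of at least 5 FPKM, 7 under median-ratio scaling and 6 after quantile normalization, in place of 17. In Tibetan minus Wujin they numbered 6 with that filter and 6 with an absolute log2 difference of at least 1, in place of 10. The filter of 5 FPKM left 25 of the 38 members to test, and all 25 kept their result in both comparisons. Its smaller counts therefore come from fewer members tested. In Wujin minus Large White, 1 member was called higher with a pseudocount of 0.1 (KLF9), and leaving out 1 library gave 0 to 2 called lower. Members called higher in Tibetan minus Large White numbered 12 to 22 over all alternatives. The sign turned under median-ratio scaling and quantile normalization for FOSL1 (0.57 and 0.66), SOCS5 (0.26 and 0.32) and CEBPZ (0.61 and 0.44) against Large White. It also turned for SOCS5 (0.58 and 0.58) and CEBPZ (0.59 and 0.45) against Wujin. Against Wujin, median-ratio scaling also turned MYC (0.43), FOSL1 (0.25), SOCS7 (0.25), ATF6 (0.15) and ATF7 (0.02), which were not called with or without it. Against Large White the sign of MYC turned under median-ratio scaling (0.09), and those of SOCS7 (0.03) and MAP3K5 (0.05) after quantile normalization. The cause was not tested, beyond the shift of the median that these scalings remove. Deviations of same-numbered Tibetan and Large White libraries correlated at 0.013, -0.023 and -0.076, and those of differently numbered ones at -0.111 to 0.125. No pairing by number was seen, but correlations over so few libraries cannot exclude it. With the replicate block, 18 members were called higher and 16 lower in Tibetan minus Large White, and the call lost was CEBPZ. Leaving out 1 library gave 16 to 19 members higher and 14 to 17 lower in Tibetan minus Large White. The unknown number of fragments limits members below 1 FPKM most.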
